A study of Mus musculus with 8 samples.

Results

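The genes described here are 10 whose human counterparts have been linked to familial Parkinson disease or inherited parkinsonism: Pink1, Park7, Lrrk2, Uchl1, Vps35, Atp13a2, Pla2g6, Fbxo7, Synj1 and Dnajc6. They were chosen by name, and all 10 were found among the 19938 genes measured on the arrays. Each gene is represented by the probe set with the highest mean signal over the 8 arrays. Only Lrrk2 had a choice, with 2 probe sets. The retinas came from male C57BL/6 mice, 6 weeks old at the start, that were given saline or MPTP and examined at 1 week (7 days) or 4 weeks (28 days). MPTP is a toxin whose metabolite enters dopamine neurons through the dopamine transporter and blocks complex I of the mitochondrial respiratory chain. There were 4 groups (saline at 1 week, MPTP at 1 week, saline at 4 weeks, MPTP at 4 weeks), each with 6 mice and 2 arrays, and each array held RNA pooled from 4 retinas. The labels give no dose or injection scheme, and the mice carried no named allele beyond their strain. The labels do not say that the 2 pools of a group came from different animals, so the p-values measure only the spread between these arrays, which may be technical.

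The 10 genes act at a few connected sites in the cell. PINK1 is a kinase that builds up on damaged mitochondria and starts their removal by autophagy (mitophagy), DJ-1 (encoded by Park7) protects against oxidative stress, and FBXO7 is the substrate-binding part of a ubiquitin ligase that also takes part in mitophagy. UCHL1 is a deubiquitinating enzyme abundant in neurons, including retinal ganglion cells, and LRRK2 is a kinase that phosphorylates Rab GTPases. VPS35 is the core of retromer, which returns cargo from endosomes, and ATP13A2 is a lysosomal polyamine transporter. PLA2G6 is a calcium-independent phospholipase, and synaptojanin 1 (Synj1) and auxilin (Dnajc6) strip the clathrin coat from recycled synaptic vesicles. In the retina a small class of amacrine cells makes dopamine, and photoreceptor ribbon synapses recycle vesicles continuously. In whole retina, fewer cells of a type and less RNA per cell cannot be told apart.

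No member passed a test for an MPTP effect. On the probe sets kept, the largest differences were seen in Pink1, Uchl1 and Park7. Pink1 had both MPTP arrays below both saline arrays at each time. Uchl1 and Park7 had both MPTP arrays above both saline arrays at 1 week. Groups placed like this, with every array of the first above or below every array of the second, are called groups without overlap. The second Lrrk2 probe set, described below, also had groups without overlap at each time. Its difference at 1 week (MPTP minus saline, log2) was -0.30, larger in size than that of any probe set kept. The start regions of Pink1, Park7 and Uchl1 are shown because the results on the probe sets kept turn on these 3 genes. They are credited to RefSeq (build GRCm38.p6), run 5′ to 3′ in the direction of the gene, and span 300 bases, most of them before the annotated start. That of Pink1 lies at chr4:138326247-138326546 on the minus strand, that of Park7 at chr4:150909872-150910171 on the minus strand, and that of Uchl1 at chr5:66675871-66676170 on the plus strand. Capitals mark the GC box (GGGCGG on either strand).
Pink1: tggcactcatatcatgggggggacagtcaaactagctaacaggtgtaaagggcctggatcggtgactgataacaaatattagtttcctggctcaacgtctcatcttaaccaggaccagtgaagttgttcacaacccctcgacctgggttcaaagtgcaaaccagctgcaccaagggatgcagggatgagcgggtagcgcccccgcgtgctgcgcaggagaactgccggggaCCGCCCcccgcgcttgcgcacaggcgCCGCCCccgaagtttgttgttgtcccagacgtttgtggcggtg
Park7: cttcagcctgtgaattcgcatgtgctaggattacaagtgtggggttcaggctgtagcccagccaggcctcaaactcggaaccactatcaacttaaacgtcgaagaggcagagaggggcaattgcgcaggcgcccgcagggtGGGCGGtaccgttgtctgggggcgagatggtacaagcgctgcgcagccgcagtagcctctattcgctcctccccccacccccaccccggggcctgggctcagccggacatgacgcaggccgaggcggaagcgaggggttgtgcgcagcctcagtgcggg
Uchl1: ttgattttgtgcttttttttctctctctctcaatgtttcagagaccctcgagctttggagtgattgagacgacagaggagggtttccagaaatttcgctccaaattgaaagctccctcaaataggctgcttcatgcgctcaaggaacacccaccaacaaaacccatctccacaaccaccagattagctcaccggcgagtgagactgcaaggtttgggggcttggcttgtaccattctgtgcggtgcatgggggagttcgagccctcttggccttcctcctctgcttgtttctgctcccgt

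A start region was held for 9 of the 10 genes, Vps35 being the exception. The motifs searched, on both strands, were the GC box (GGGCGG), the E-box (CACGTG), the CCAAT box (CCAAT), the TATA box (TATAAA) and the antioxidant response element (TGACNNNGC). The GC box was present in 7 of the 9 genes (Pink1, Park7, Lrrk2, Atp13a2, Pla2g6, Synj1 and Dnajc6), against 38.2% of all 27025 genes with such a region. The E-box was found in Fbxo7 alone (8.09% of all genes) and the CCAAT box in Pla2g6 alone (41.1%), and none of the 9 held the TATA box (15.7%) or the antioxidant response element (14%). Uchl1 held none of the 5 motifs in this window. GC content was 58% in the Pink1 region, 64% in that of Park7 and 50.7% in that of Uchl1, against a median of 52.7% over 32851 regions. A match here describes letters and not a site in use.

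On these arrays the signal is a log2 value per probe set, so a difference of 1 is a doubling. Because probe sets differ in how well they hybridize, signals are compared within a gene and not between genes. In place of such a comparison, the percentile of a probe set's mean among the 19938 genes says only how bright it was. By this measure 9 of the 10 members stood above percentile 50, from 53.9 for Pla2g6 to 94.3 for Vps35, and Lrrk2 stood at 36.2. The tissue label was checked against 15 measured retina markers, of which 14 were above percentile 50, with the rod transducin Gnat1 at 100 and the ganglion and horizontal cell gene Lhx1 at 26.4. Saline 1 week array 2 and MPTP 1 week array 1 stood apart from the other 6 on the first principal component (38.3% of the variance), so values that move much without both are also given that way. Signals were also more widely spread on these 2 arrays, with an interquartile range of 1.90 and 1.92 (log2), against 1.65 to 1.74 on the other 6. MPTP 1 week array 2 had the highest mean signal of 12 lens genes (7.98, against 7.03 to 7.63 elsewhere) and of 10 pigment epithelium genes (7.90, against 7.22 to 7.68). Once the pair is left out, the 1 week comparison is saline array 1 against this lens-rich MPTP array 2. Over all genes, 0% passed an adjusted p of 0.05 (limma, Benjamini-Hochberg) in any of the 6 comparisons made.

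**Figure D1:**
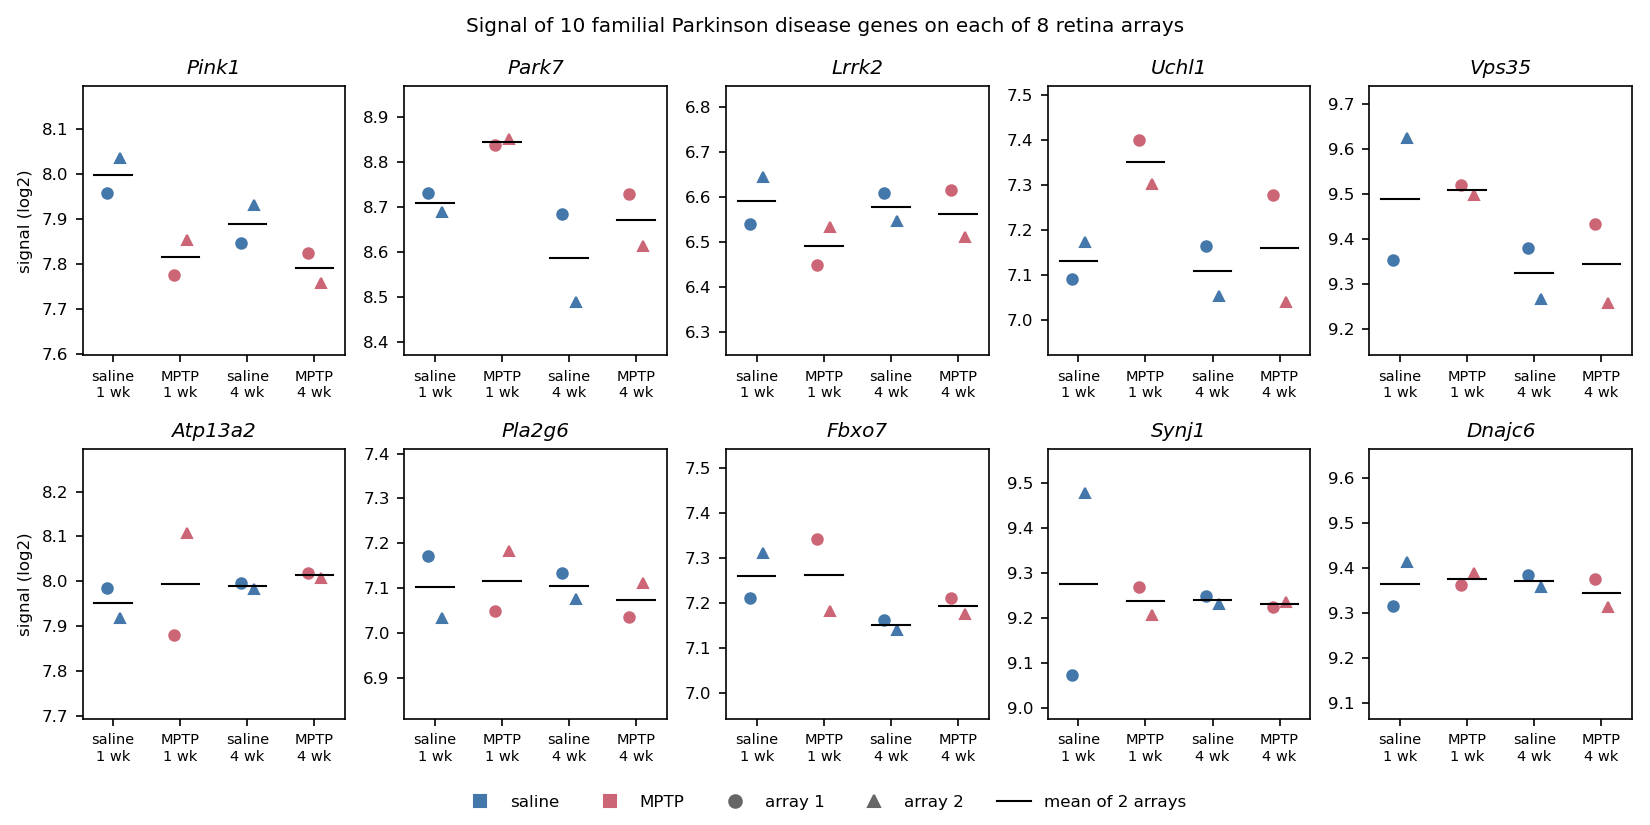
Signal (log2) of each of the 10 genes on each array, by group, with circles for array 1, triangles for array 2 and a bar at the mean of the 2 arrays. All panels span 0.6 on the log2 axis, placed around the gene's own level. Pink1 is lower in MPTP than in saline at both times, Park7 and Uchl1 are higher in MPTP at 1 week, and the widest gap between arrays of 1 group is that of Synj1 in saline at 1 week.

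Among the genes of mitochondrial quality control, Pink1 (probe set 10517600) was the member whose MPTP arrays were lower at both times. Its signal was 7.96 and 8.04 in saline and 7.78 and 7.85 in MPTP at 1 week, and 7.85 and 7.93 in saline and 7.82 and 7.76 in MPTP at 4 weeks. The groups did not overlap at either time, and over both times the lowest saline array (7.846) lay just under the highest MPTP array (7.854). Lower without overlap were 13.8% of all genes at 1 week and 17.9% at 4 weeks, and the share at both is not given here. The MPTP effect (MPTP minus saline, log2, ± standard error of the limma fit) was -0.18 ± 0.09 at 1 week (adjusted p = 1.00), -0.10 ± 0.09 at 4 weeks (adjusted p = 1.00) and -0.14 ± 0.06 over both times (n = 4 arrays per treatment, unadjusted p = 0.0376, adjusted p = 0.973). As a fold this last value is 0.907, with a 95% interval of 0.829 to 0.993, not adjusted for the number of genes. On the probe sets kept, Pink1 was the 1 member of 10 with an unadjusted p under 0.05 over both times. That level was reached by 4.76% of all genes and, counting lower values alone, by 2.47%. Ordered by mean, the groups of Pink1 ran from saline at 1 week (8.00) through saline at 4 weeks (7.89) and MPTP at 1 week (7.81) to MPTP at 4 weeks (7.79), and only the first step had no overlap. Without the pair of arrays that stand apart, the effect was -0.10 ± 0.11 at 1 week and -0.10 ± 0.06 over both times, where the unadjusted p was then 0.142. With 1 array left out at a time, that p lay between 0.0347 and 0.103, and after quantile normalization it was 0.052. The 4 week effect was -0.06 without saline array 2. After quantile or cyclic loess normalization the 4 week groups of Pink1 overlapped, and with each array centred on its median the groups did not overlap over both times.

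Park7 (probe set 10518774), the gene of DJ-1, went the other way. At 1 week its signal was 8.73 and 8.69 in saline against 8.84 and 8.85 in MPTP, with no overlap. At 4 weeks saline gave 8.68 and 8.49 and MPTP 8.73 and 8.61, which overlap. The MPTP effect was 0.13 ± 0.10 at 1 week (0.12 without the pair of arrays that stand apart), 0.08 ± 0.10 at 4 weeks and 0.11 ± 0.06 over both times (adjusted p = 0.973), a fold of 1.08 with an interval of 0.978 to 1.19. A single saline array, array 2 of 4 weeks, was the lowest of the 8, and without it the 4 week effect was -0.01. MPTP at 1 week was the highest group and did not overlap with saline at 1 week, the next in order, while the lower 3 groups overlapped with their neighbours.

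The third gene of this set, Fbxo7 (probe set 10365471), showed small differences. Signal at 1 week was 7.21 and 7.31 in saline and 7.34 and 7.18 in MPTP, and at 4 weeks 7.16 and 7.14 in saline and 7.21 and 7.18 in MPTP. The 4 week groups did not overlap, with an effect of 0.04 ± 0.09, and the 1 week effect was 0.0013 ± 0.09. Over both times it was 0.02 ± 0.06 (fold 1.02, interval 0.925 to 1.11). Both 1 week groups were brighter than both 4 week groups apart from 1 overlap, that of MPTP array 2 at 1 week with MPTP at 4 weeks.

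Uchl1 (probe set 10522208), the neuronal ubiquitin hydrolase, had the largest MPTP effect of the 10 genes at 1 week on the probe sets kept. Signal was 7.09 and 7.17 in saline against 7.40 and 7.30 in MPTP, a difference of 0.22 ± 0.10 (fold 1.16, interval 0.990 to 1.37, unadjusted p = 0.0627, adjusted p = 1.00). The difference was 0.21 without the pair of arrays that stand apart. MPTP array 1, the higher of the 1 week MPTP group, is 1 of the pair that stands apart and had the lowest lens and pigment epithelium signal of the 8 arrays. The part of other tissue in the Uchl1 values was not tested. At 4 weeks the Uchl1 signal was 7.16 and 7.05 in saline against 7.28 and 7.04 in MPTP, where MPTP arrays held both the highest and the lowest value. The effect there was 0.05 ± 0.10, and its sign rested on 1 array: -0.07 without MPTP array 1 and 0.17 without MPTP array 2. The difference of the effects (4 weeks minus 1 week) was -0.17 ± 0.15 (adjusted p = 1.00), and it too rested on the 4 week MPTP arrays, being -0.29 without array 1 and -0.05 without array 2. Over both times the effect was 0.14 ± 0.07 (adjusted p = 0.973), and without the pair of arrays that stand apart it was 0.10 ± 0.08. MPTP at 1 week was the highest group, above MPTP at 4 weeks without overlap, and the other groups overlapped with their neighbours.

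Lrrk2, the Rab kinase, was the dimmest member, and its 2 probe sets are given side by side. The brighter one (10426315) read 6.54 and 6.64 in saline and 6.45 and 6.53 in MPTP at 1 week, then 6.61 and 6.55 in saline and 6.62 and 6.51 in MPTP at 4 weeks. Its groups did not overlap at 1 week (-0.10 ± 0.09) and did at 4 weeks (-0.01 ± 0.09), with -0.06 ± 0.06 over both times (fold 0.961, interval 0.875 to 1.05). The separation at 1 week was lost after quantile, median or cyclic loess scaling. The dimmer one (10426368) read 5.61 and 5.49 in saline and 5.30 and 5.20 in MPTP at 1 week, and 5.61 and 5.54 in saline and 5.53 and 5.40 in MPTP at 4 weeks. It was lower in MPTP without overlap at each time, by a larger amount than the first: -0.30 ± 0.09 at 1 week (unadjusted p = 0.0107), -0.11 ± 0.09 at 4 weeks and -0.20 ± 0.07 over both times (unadjusted p = 0.0132, adjusted p = 0.972). The second probe set stood at percentile 16.9 of all probe sets. Both values of Lrrk2 had the same sign, and their sizes differed by more than 1.5 times. Without the pair of arrays that stand apart, the effect of the brighter probe set at 1 week was -0.0065 ± 0.11. For the dimmer probe set, the 1 week arrays then left read 5.61 in saline and 5.20 in MPTP. These are its highest saline and its lowest MPTP value at 1 week, so its difference grew.

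For endosome and lysosome the 2 members are Vps35 and Atp13a2. Vps35 (probe set 10580331) read 9.35 and 9.62 in saline and 9.52 and 9.50 in MPTP at 1 week, and 9.38 and 9.27 in saline and 9.43 and 9.26 in MPTP at 4 weeks. Treated and control groups overlapped at both times, with effects of 0.02 ± 0.11 and 0.02 ± 0.11 and a value over both times of 0.02 ± 0.07 (fold 1.01, interval 0.905 to 1.14). At 1 week the effect was 0.14 ± 0.13 without the pair of arrays that stand apart. The sign of these values turned under quantile normalization at 1 week (-0.03) and over both times (-0.0016). Atp13a2 (probe set 10509868) read 7.99 and 7.92 in saline and 7.88 and 8.11 in MPTP at 1 week, so that MPTP arrays held the lowest and the highest value of the 8. At 4 weeks the 4 arrays lay close together, at 8.00 and 7.98 in saline and 8.02 and 8.01 in MPTP. The groups did not overlap there, yet the effect was only 0.02 ± 0.10, and over both times it was 0.03 ± 0.06 (fold 1.02, interval 0.927 to 1.13). Leaving out the pair of arrays that stand apart gave 0.12 ± 0.10 at 1 week.

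Pla2g6 (probe set 10430489), the phospholipase gene, varied little. It read 7.17 and 7.03 in saline and 7.05 and 7.18 in MPTP at 1 week, and 7.13 and 7.08 in saline and 7.04 and 7.11 in MPTP at 4 weeks. All 4 groups overlapped with their neighbours in order. The MPTP effect was 0.01 ± 0.09 at 1 week, -0.03 ± 0.09 at 4 weeks and -0.0092 ± 0.06 over both times (fold 0.994, interval 0.903 to 1.09).

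The coat-removal pair, Synj1 and Dnajc6, was bright and differed in steadiness. Synj1 (probe set 10440849), a lipid phosphatase that releases clathrin adaptors, read 9.07 and 9.48 in saline at 1 week, the lowest and the highest of its 8 values. Its other 6 arrays lay between 9.21 and 9.27. The MPTP effect was -0.04 ± 0.12 at 1 week, -0.0093 ± 0.12 at 4 weeks and -0.02 ± 0.08 over both times, and without the pair of arrays that stand apart the 1 week value was 0.13 ± 0.10. Dnajc6 (probe set 10506274), the auxilin cofactor that recruits the chaperone Hsc70 to coats, had the narrowest range of the 10 genes, 0.10 between 9.31 and 9.41. Its effects were 0.01 ± 0.09, -0.03 ± 0.09 and -0.0074 ± 0.06 in the same order, and its interval over both times was the narrowest, a fold of 0.913 to 1.08. With the pair of arrays that stand apart left out, its 1 week value was 0.07 ± 0.10.

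**Figure D2:**
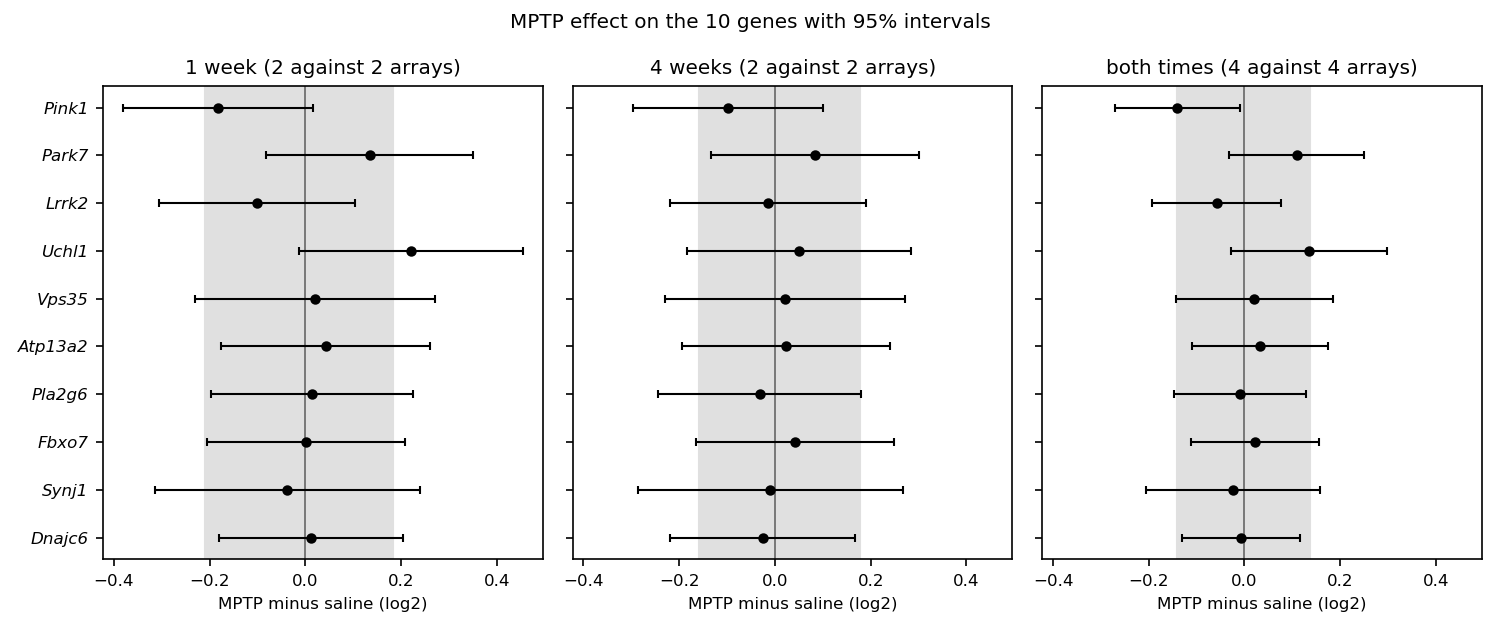
MPTP effect (MPTP minus saline, log2) of the 10 genes at 1 week, at 4 weeks and over both times, as points with 95% intervals of the limma fit. The grey band runs from percentile 5 to percentile 95 of the same effect over all 19938 genes. Only the interval of Pink1 over both times excludes 0, and Uchl1 at 1 week is the point farthest to the right.

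Set against all genes at 1 week, 7 of the 10 members were above 0, against 46.9% of all genes. Their median effect was 0.01 against -0.0081 over all genes, with values from -0.18 (Pink1) to 0.22 (Uchl1), while 90% of all genes lay between -0.21 and 0.18. Without the pair of arrays that stand apart the members' median at 1 week was 0.10, while it was -0.01 after quantile normalization, -0.0053 after cyclic loess and -0.04 without saline 1 week array 1, so its sign depended on the processing. In all, 4 of 10 members had groups without overlap, 2 higher (Park7 and Uchl1) and 2 lower (Pink1 and Lrrk2), against 26.3% of all genes (12.5% higher and 13.8% lower). On the probe sets kept, none of the 10 had an unadjusted p under 0.05, against 4.22% of all genes. The second Lrrk2 probe set, which is not counted here, had 0.0107 in the same limma fit.

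At 4 weeks the spread of effects on the probe sets kept was narrower, from -0.10 (Pink1) to 0.08 (Park7). The median was 0.0061 against 0.0043 over all genes, and 5 members were above 0, against 51.8% of all genes. The members without overlap were 3 of 10, Atp13a2 and Fbxo7 higher and Pink1 lower, against 35.3% of all genes (17.4% higher and 17.9% lower). Of these 3 only Pink1 was left with each array centred on its median. Again 0 of 10 had an unadjusted p under 0.05, against 1.91%. Over both times 5 members were above 0 and 5 below (49% of all genes were above 0), the median was 0.0067 against -0.0017, and no member separated the 4 MPTP from the 4 saline arrays, which 2.5% of all genes did. The exception was Pink1 with each array centred on its median. In the difference of the effects (4 weeks minus 1 week), 5 members were above 0, against 52.2% of all genes, and 0 had an unadjusted p under 0.05, against 1.96%. The smallest adjusted p among members was 1.00 at 1 week, 1.00 at 4 weeks and 0.973 over both times.

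The intervals show how wide the estimates were on these arrays. Over both times they reached from a fold of 0.829 (Pink1) to 1.23 (Uchl1) across the probe sets kept for the 10 genes, which leaves out the lower values of the second Lrrk2 probe set. At 1 week they were wider, from 0.768 (Pink1) to 1.37 (Uchl1). This range also leaves out the second Lrrk2 probe set, whose 1 week effect was -0.30 ± 0.09 (log2), lower than that of Pink1. A p above the threshold does not show that a gene was unaffected, and these ranges set no firm bound on an effect.

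The change from 1 to 4 weeks had a size like that of the MPTP effects, from -0.17 to 0.04 in saline and from -0.19 to 0.07 in MPTP. In saline, Pink1 (-0.11 ± 0.09), Park7 (-0.12 ± 0.10) and Fbxo7 (-0.11 ± 0.09) were lower at 4 weeks than at 1 week without overlap, 3 of 10 against 27.7% of all genes (15.1% lower and 12.7% higher). In MPTP the 3 genes lower without overlap were Park7 (-0.17 ± 0.10), Uchl1 (-0.19 ± 0.10) and Vps35 (-0.16 ± 0.11), against 44.3% of all genes (21.5% lower and 22.8% higher). Without the pair of arrays that stand apart, the saline changes of Pink1, Park7 and Fbxo7 were -0.07, -0.14 and -0.06 and the MPTP changes of Park7, Uchl1 and Vps35 were -0.18, -0.14 and -0.15. Single arrays of 4 weeks moved some of these values further: Park7 in saline was -0.02 without array 2 and -0.22 without array 1. In MPTP, without array 2 of 4 weeks, Uchl1 was -0.07, Vps35 -0.08 and Park7 -0.12. These genes are named after their values were seen, and none had an adjusted p below 0.535. Members above 0 were 3 of 10 in saline, against 50.6% of all genes, and 2 of 10 in MPTP, against 53.3%. None had an unadjusted p under 0.05 in saline, against 2.13%, nor in MPTP, against 9.79%. No member was higher at 4 weeks without overlap in either treatment. The saline and the MPTP change share no arrays with each other, but each shares arrays with the MPTP effects above.

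Over the 8 arrays several members varied together. Among the 45 pairs Pearson's r ran from -0.75 (Atp13a2 and Fbxo7) to 0.83 (Park7 and Uchl1), with a median of 0.15. Without the pair of arrays that stand apart, the sign turned in 21 of 45 pairs. The trio of Park7, Uchl1 and Vps35, named after its values were seen, stayed positive: 0.83 between Park7 and Uchl1 (0.79 over 6 arrays), 0.66 between Park7 and Vps35 (0.90) and 0.70 between Uchl1 and Vps35 (0.96). Other pairs did too, among them Vps35 with Dnajc6 (0.76, and 0.70 over 6 arrays) and Vps35 with Fbxo7 (0.77 and 0.45), so the trio is not set apart. Pink1 was nearly unrelated to Vps35 over the 6 arrays (r = -0.01). These correlations describe arrays that share a normalization and differ in treatment and time, and are no evidence of shared control.

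**Figure D3:**
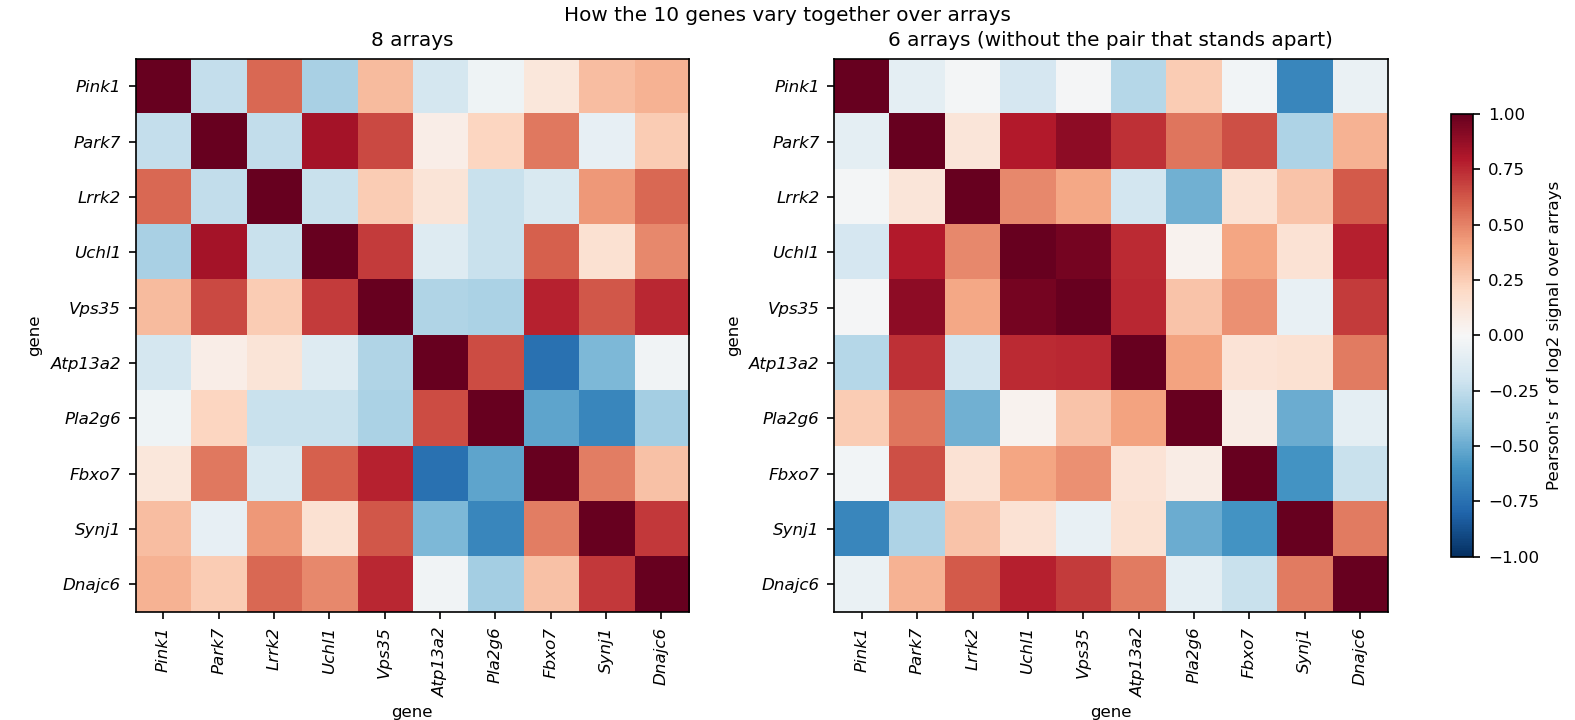
Pearson's r of log2 signal between each pair of the 10 genes over 8 arrays (left) and over the 6 arrays left without saline 1 week array 2 and MPTP 1 week array 1 (right), on a scale from -1 (blue) to 1 (red). The pairs among Park7, Uchl1 and Vps35 are red in both panels, as are others such as Vps35 with Dnajc6, and the sign turns in 21 of the 45 pairs.

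Vps35 and Synj1 had the widest ranges of the 10 genes, 0.37 and 0.41. The genes most like Vps35 among 9968 genes of the brighter part were Hnrnpa2b1 (r = 0.99 over 8 arrays, 0.97 over 6), Ints2 (0.97 and 0.93) and Exoc6 (0.97 and 0.94). For Synj1 they were Dcaf5 (0.99 and 0.96), Galnt10 (0.98 and 0.94) and Herc2 (0.98 and 0.92). These values were found by a search among all those genes over few arrays.

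The genes that work with the 10 members were followed in 9 lists. No gene of any of the lists passed an adjusted p of 0.05 in either direction, at 1 week, at 4 weeks or over both times, so each list is described by its values. Examples are the 3 genes of a list with the smallest unadjusted p over both times. Across the lists, medians of the MPTP effect lay between -0.05 and 0.07 at 1 week, against -0.0081 over all genes. Of all genes, 46.9% were above 0 at 1 week, 51.8% at 4 weeks and 49% over both times. Without the pair of arrays that stand apart, 47.5% of all genes were above 0 at 1 week. A gene can stand in 2 lists, as Dnajc13 does, and Th, Slc6a3 and Gch1 are also dopaminergic amacrine markers.

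Around Pink1, 22 of 26 listed genes of mitophagy were measured. At 1 week 15 were above 0 (median 0.02), against 46.9% of all genes, and at 4 weeks 7 (median -0.06), against 51.8%. The 1 week median was 0.06 without the pair of arrays that stand apart. Tomm22, a receptor of the outer mitochondrial membrane import complex, read 7.41 and 7.45 in saline and 7.18 and 7.11 in MPTP at 1 week. At 4 weeks it read 7.26 and 7.27 in saline against 7.01 and 7.18 in MPTP. All 4 MPTP arrays of Tomm22 were below all 4 saline arrays (-0.23 ± 0.06 over both times, unadjusted p = 0.00449, adjusted p = 0.973), 1 of 22 genes against 1.49% of all genes. Tomm22 stood at -0.21 ± 0.07 without the pair of arrays that stand apart. The autophagy receptor Tax1bp1 stood at 0.11 ± 0.06, and Parl, the inner membrane protease that cleaves PINK1, at 0.11 ± 0.08 over both times. Parl was 0.23 ± 0.12 at 1 week and -0.0029 ± 0.12 at 4 weeks.

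Among 20 partners and Rab substrates of LRRK2, all measured, the median was -0.0092 at 1 week (0.02 without the pair of arrays that stand apart) and -0.0072 at 4 weeks. Rab3b, a Rab of secretory vesicles, stood at 0.17 ± 0.07 over both times. Rab12, a direct LRRK2 substrate, stood at -0.15 ± 0.06, and Ppm1h, the phosphatase that reverses LRRK2 phosphorylation of Rabs, at -0.14 ± 0.07. Of the 20, Rab3b and Rab12 had an unadjusted p under 0.05 over both times, 1 in each direction, against 2.3% of all genes higher and 2.47% lower.

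Retromer and the WASH complex, which surround Vps35, were mostly above 0 at 1 week. Of 17 genes, 14 were above 0 with a median of 0.07, against 46.9% of all genes above 0. In 7 of them both MPTP arrays were higher than both saline arrays, against 12.5% of all genes. At 4 weeks 9 were above 0, against 51.8% of all genes, with a median of 0.0043, and that of all genes was 0.0043. Snx3, a sorting nexin that recruits retromer, read 9.27 and 9.24 in saline and 9.47 and 9.58 in MPTP at 1 week, then 9.16 and 9.06 in saline and 9.26 and 9.22 in MPTP at 4 weeks. Its groups did not overlap at either time (0.26 ± 0.09, 0.13 ± 0.09 and 0.19 ± 0.06 over both, adjusted p = 0.973). Higher without overlap were 12.5% of all genes at 1 week and 17.4% at 4 weeks, and the share at both is not given here. Washc3 stood at 0.15 ± 0.08 and Washc4 at -0.12 ± 0.06 over both times. The mean signal of the 17 genes at 1 week was 8.545 and 8.631 in saline and 8.681 and 8.633 in MPTP. The higher MPTP value was on array 1, which is 1 of the pair that stands apart. What part other tissue or the array itself had in these values was not tested. Leaving out the pair of arrays that stand apart gave 13 of 17 above 0 with a median of 0.11.

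Genes of the clathrin coat and its removal, the setting of Synj1 and Dnajc6, were mostly below 0. Of 24 measured, 16 were below 0 at 1 week (median -0.03), 19 at 4 weeks (median -0.03) and 18 over both times (median -0.04). Above 0 were 8 at 1 week, against 46.9% of all genes, 5 at 4 weeks, against 51.8%, and 6 over both times, against 49%. The 1 week count rested on the pair of arrays that stand apart: without them 12 were above and 12 below 0, with a median of 0.01. The adaptor subunits Ap2a2 (-0.17 ± 0.08) and Ap2m1 (-0.14 ± 0.07) and the endophilin Sh3gl2 (-0.13 ± 0.06) had the smallest unadjusted p over both times. In 3 of the 24 (Sh3gl2, Cltc and Pacsin1) all 4 MPTP arrays were below all 4 saline arrays, against 1.49% of all genes. Cltc, the clathrin heavy chain, stood at -0.09 and Pacsin1, a membrane-bending protein of endocytosis, at -0.07, and both are named after their values were seen. The retina marker list was also lower in both MPTP arrays of 4 weeks (9.49 and 9.52) than in both saline arrays (9.55 and 9.58), and its part in the coat values was not tested.

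**Figure D4:**
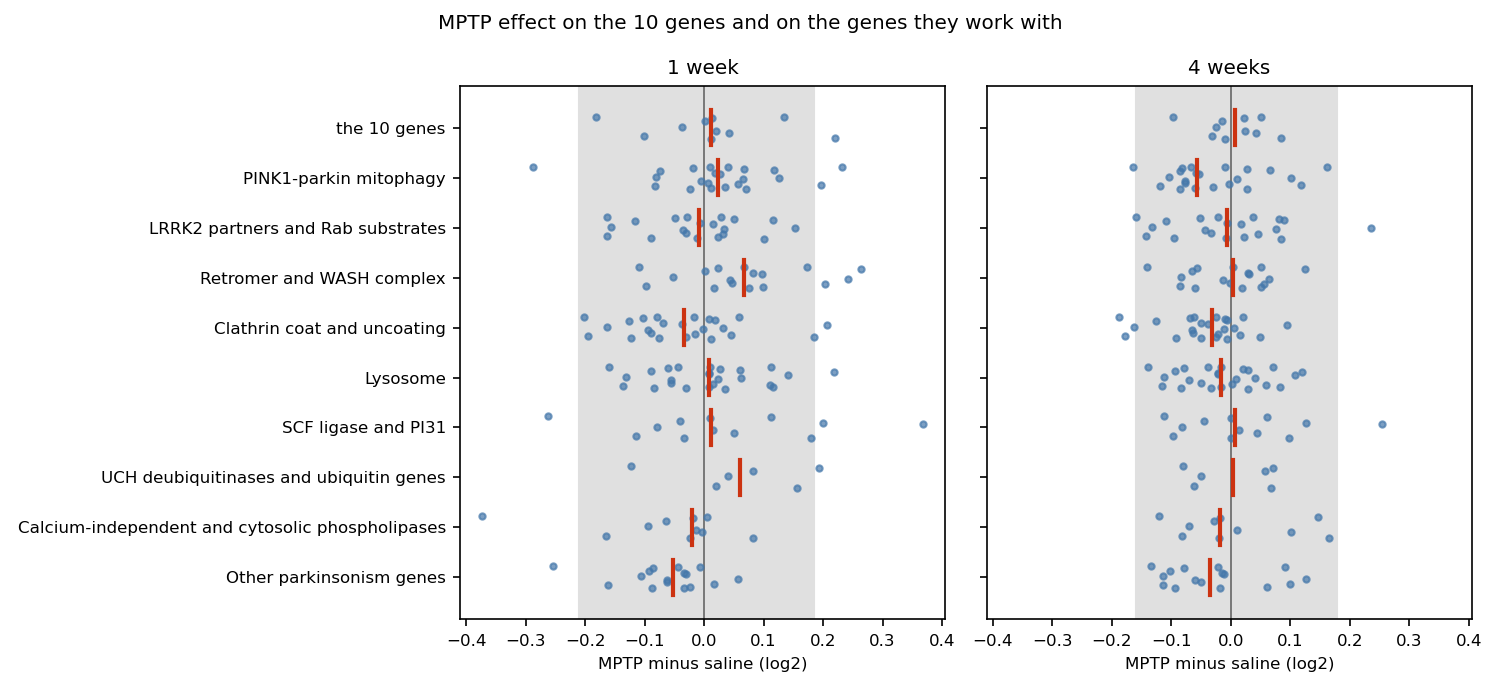
MPTP effect (log2) at 1 week (left) and 4 weeks (right) for the 10 genes and the 9 lists of genes they work with, 1 point per gene, with a red bar at each list's median and a grey band from percentile 5 to percentile 95 of all genes. Retromer and WASH genes have a median of 0.07 at 1 week and 0.0043 at 4 weeks, and the clathrin genes have medians of -0.03 at both.

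The remaining lists surround Atp13a2, Fbxo7, Uchl1 and Pla2g6. Of 25 lysosomal genes 15 were above 0 at 1 week, against 46.9% of all genes, and 11 at 4 weeks, against 51.8%. Over both times Galc, a lysosomal galactosidase, stood at 0.14 ± 0.08. In the same comparison Atp13a4, a relative of Atp13a2, stood at -0.14 ± 0.08 and the calcium channel Mcoln1 at -0.10 ± 0.06. The 12 genes of SCF ubiquitin ligases and linked proteins had a median of 0.01 at 1 week and 0.0067 at 4 weeks. Without the pair of arrays that stand apart, their 1 week median was 0.10. One of them, Skp1, the adaptor that binds FBXO7 to the ligase, read 9.28 and 9.39 in saline and 9.58 and 9.82 in MPTP at 1 week, and 9.34 and 9.31 against 9.73 and 9.42 at 4 weeks. All MPTP arrays of Skp1 were above all saline arrays (0.31 ± 0.08 over both times, unadjusted p = 0.00368, adjusted p = 0.973), against 1.01% of all genes. The effect of Skp1 over both times was 0.35 ± 0.10 without the pair of arrays that stand apart. Nedd8, the modifier that activates these ligases, stood at 0.15 ± 0.08 and the cyclin Ccnd3 at -0.13 ± 0.09.

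The relatives of UCHL1 and other ubiquitin genes, 6 of 10 measured, had a median of 0.06 at 1 week (0.12 without the pair of arrays that stand apart) and 0.0037 at 4 weeks. Over both times Bap1 stood at -0.10 ± 0.06, Usp14, a deubiquitinase of the proteasome, at 0.11 ± 0.07 and Uchl5 at 0.07 ± 0.06. Beside Pla2g6, 10 genes of phospholipases and their relatives were measured, with medians of -0.02 at both times. Without the pair of arrays that stand apart, the 1 week median was -0.05. Over both times Pla2g4c stood at -0.25 ± 0.12, Pnpla3 at -0.12 ± 0.07 and Pnpla1 at 0.07 ± 0.06. Of 16 other genes linked to parkinsonism, 14 were below 0 at 1 week (median -0.05) and 12 at 4 weeks (median -0.04). Above 0 were 2 at 1 week, against 46.9% of all genes, and 4 at 4 weeks, against 51.8%. With the pair of arrays that stand apart left out, 10 were below 0 at 1 week, with a median of -0.08. Among them Rab39b stood at -0.17 ± 0.07, the dynactin subunit Dctn1 at -0.11 ± 0.06 and Mapt, the gene of tau, at -0.10 ± 0.07 over both times, again with an adjusted p of 0.973 each. The 5 dopaminergic amacrine markers were dim, all below percentile 50. Their effect was below 0 in 5 of 5 at 1 week (3 of 5 without the pair of arrays that stand apart). At 4 weeks it was below 0 in 4 of 5. Above 0 were 0 of 5 and 1 of 5, against the same 46.9% and 51.8% of all genes. Th, the gene of tyrosine hydroxylase, was lower in MPTP without overlap at 1 week (-0.16 ± 0.09), as 13.8% of all genes were, and Slc6a3, the dopamine transporter gene, was higher without overlap at 4 weeks (0.13 ± 0.14), as 17.4% were.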

How the data were processed

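RNA from pooled retinas (100 ng per sample, labelled with biotin) was hybridized to 8 Affymetrix gene arrays. The deposited values are log2 signals per probe set. The submitters' processing notes name RMA in Affymetrix Expression Console, without versions. Of 28944 probe sets, 21789 name exactly 1 gene in the platform annotation, 1621 name several and 5534 none. The probe set with the highest mean was kept per gene, giving 19938 genes, with no filter on dim signal.

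From these values, limma 3.58.1 in R 4.3.3 (lmFit, contrasts.fit, eBayes, two-sided) fitted a mean per group (4 residual degrees of freedom) and, for MPTP over both times, treatment and time as additive terms (5). The p-values were adjusted by Benjamini-Hochberg over all genes. "No overlap" means that every array of 1 side lies above every array of the other. Errors are standard errors, with n = 2 arrays per group, and the number of arrays limits the precision. The code was tested on simulated data. Figures were drawn with matplotlib 3.10.9.

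The members, lists and tests were chosen with earlier results of these data known. All members are named. List examples are the 3 smallest unadjusted p over both times, and similar genes were sought for the 2 members of widest range among genes above the median signal. Listed genes without a probe set of their own were not analysed here. The alternatives were quantile, median and cyclic loess scaling, a signal filter, averaged probe sets, trend and robust settings, fits of the compared groups alone, a block for the array number, and fits lacking 1 array or the pair that stands apart.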

Additional observations from a re-analysis of the deposited data

How the results depend on the processing

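Under every alternative run, 0 of the 10 members passed an adjusted p of 0.05 in any of the 6 comparisons. Over all genes 0 passed too, except that 1 gene did in the change from 1 to 4 weeks in MPTP without MPTP 1 week array 1, and 1 without the pair of arrays that stand apart. Of 672 recomputed values of members, 630 kept their sign and 42 turned. Many of them could not turn, so the first count is no measure of stability. A 1 week effect, for instance, is unchanged when a 4 week array is left out, and several settings change only the error. The values came from 38 effects, and for the changes over time and the difference of effects only some members entered. The MPTP effects of Pink1, Park7 and Uchl1 over both times and at 1 week, and that of Lrrk2 over both times and at 1 week, kept their sign in every alternative. After quantile normalization the sign turned for Vps35 (-0.032 at 1 week, -0.0016 over both times), Dnajc6 (-0.035 at 1 week) and Synj1 (0.0097 at 4 weeks). Cyclic loess gave -0.017 for Vps35 and -0.025 for Dnajc6 at 1 week and 0.012 for Synj1 at 4 weeks. Without the pair of arrays that stand apart it turned for Fbxo7 (-0.030) and Synj1 (0.13) at 1 week and for Synj1 (0.039) and Dnajc6 (0.0075) over both times, and the members' median at 1 week was 0.10 in place of 0.01. The median also turned at 1 week after quantile normalization (-0.014) and cyclic loess (-0.0053), at 4 weeks after median centring (-0.012) and over both times after quantile normalization (-0.0086). The cause was not tested. With 1 array left out at a time, 0 to 1 genes passed in the change from 1 to 4 weeks in MPTP, and the sign turned for some members. At 1 week the values ran from -0.071 to 0.16 for Atp13a2, -0.038 to 0.060 for Dnajc6, -0.080 to 0.083 for Fbxo7, -0.055 to 0.082 for Pla2g6, -0.24 to 0.17 for Synj1 and -0.12 to 0.16 for Vps35. At 4 weeks the values ran from -0.057 to 0.0053 for Dnajc6, -0.067 to 0.039 for Lrrk2, -0.015 to 0.18 for Park7, -0.070 to 0.0059 for Pla2g6, -0.069 to 0.17 for Uchl1 and -0.067 to 0.11 for Vps35. Over both times the values ran from -0.015 to 0.076 for Atp13a2, -0.031 to 0.0088 for Dnajc6, -0.0067 to 0.058 for Fbxo7, -0.041 to 0.013 for Pla2g6, -0.10 to 0.061 for Synj1 and -0.033 to 0.075 for Vps35. With the array number as a replicate block, 0 members and 0 genes passed in each comparison, and Pink1 over both times kept an effect of -0.14 (unadjusted p = 0.0471, against 0.142 without the pair of arrays that stand apart). Same-numbered arrays deviated together by r = -0.38 (both groups of 1 week) to 0.21, so the numbers were not taken as pairs. With the MPTP 1 week numbers exchanged, a choice made after seeing the data, 0 genes passed. The second probe set of Lrrk2, also chosen after seeing the data, gave -0.20 over both times. A fit of only the groups compared gives no value for effects that use all 4 groups, and the signal filter leaves 9 members, without Lrrk2. The number of arrays limits what could be seen.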
